A study of Mus musculus with 15 samples.

Results

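The 83 genes described here encode the proteins of the cytosolic ribosome and a few close relatives, measured in mouse dorsal root ganglia (DRG), which hold the cell bodies of sensory neurons. They were chosen by name, as protein-coding genes called Rpl or Rps followed by a digit, together with Rplp0, Rplp1, Rplp2 and Rpsa, leaving out pseudogenes and the Rps6k kinases. Each had to reach 10 counts in at least 3 of the 15 libraries. They make up 83 of the 39179 rows of the count table, 34 with small-subunit names and 49 with large-subunit names. Of these, 76 are proteins of the ribosome, and the other 7 are the paralogues Rpl3l, Rpl22l1, Rps27l, Rpl36al and Rpl7l1, the retrogene Rps27rt and Rps19bp1, a partner of Rps19. Among the 86 names that the rule allowed, Rpl10l had no count, Rpl39l had 8 counts and Rpl24 had 37 counts in all, and these 3 were left out. All 83 members passed the filter on low counts.

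The study asked how the microRNA-183 cluster acts on mechanical pain, and sequenced the polyadenylated RNA of lumbar DRG from single mice. Knockout mice were Wnt1-Cre; mirflox/flox, in which Cre is driven by the Wnt1 promoter and acts in cells that descend from the neural crest, so that cells of other origin in the ganglion keep the cluster. Knockout mice were studied after spared nerve injury (SNI; 3 libraries) or naive (4 libraries), and control mice after SNI (3 libraries) or naive (5 libraries). In SNI the sural nerve is spared while its neighbours, the tibial and common peroneal nerves, are tied and cut. The controls carried no floxed allele: control SNI replicate 15 was Wnt1-Cre and control SNI replicates 18 and 23 were wt, while among naive controls replicates 1, 2, 3 and 6 were Wnt1-Cre and replicate 7 was wt. All mice were 3 to 6 months old and of a mixed strain background that was mainly C57bl6.

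A ribosome joins a small subunit, which reads the mRNA, to a large subunit, which makes the peptide bonds. Each of its proteins is normally needed in a single copy per ribosome, and in mammals most are encoded by 1 active gene beside many processed pseudogenes. Their mRNAs are short and abundant, and they begin with a run of pyrimidines, the terminal oligopyrimidine (TOP) motif, through which mTOR and the RNA-binding protein Larp1 control their translation and stability. In sensory neurons, ribosomal proteins are also made from mRNAs carried into the axon.

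Libraries held 5252920 to 10822762 counts. The microRNA genes themselves are too short for this assay, with 0 counts of Mir183, 1 of Mir96 and 2 of Mir182 in the whole table, and these counts cannot show the deletion. A list of 25 nerve injury genes, with Atf3, Gal, Npy and Sprr1a among them, summed to between 7067 and 8615 CPM (counts scaled for library size, with TMM factors) in knockout SNI libraries, between 6196 and 6428 CPM in control SNI libraries, between 4336 and 4587 CPM in knockout naive libraries and between 3880 and 4684 CPM in control naive libraries. Control SNI replicate 23 stands apart from the other 14 libraries. It is the shallowest, and mitochondrially encoded genes took 7.43% of its counts, against 2.26% to 3.60% in the others. Each result below is therefore given with and without it. Without it the control SNI group holds 2 libraries.

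The members together took little of each library, and most of all in replicate 23. They held 0.373%, 0.346% and 0.373% of the counts in knockout SNI replicates 13, 19 and 21. In control SNI replicates 15, 18 and 23 they held 0.335%, 0.440% and 0.883%. In knockout naive replicates 4, 5, 8 and 9 they held 0.437%, 0.474%, 0.452% and 0.480%. In control naive replicates 1, 2, 3, 6 and 7 they held 0.410%, 0.397%, 0.428%, 0.351% and 0.414%. All knockout naive libraries lay above all control naive libraries, and all knockout SNI libraries lay below all knockout naive libraries. The control SNI libraries without replicate 23 spanned both the injured knockouts and part of the naive range. The summed CPM of small-subunit members was 1.03 times that of large-subunit members in replicate 23 and between 0.783 and 0.847 times in the other 14 libraries.

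**Figure D1:**
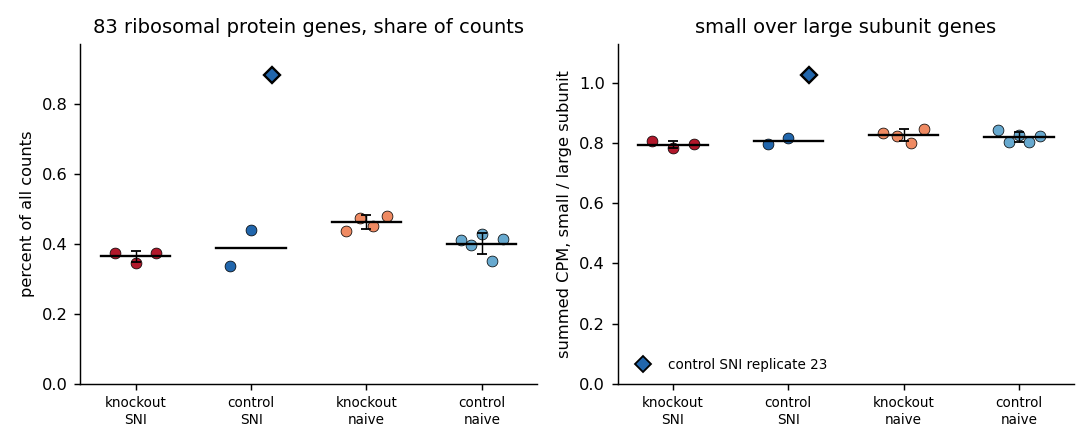
Share of all counts that fell on the 83 ribosomal protein genes (left, percent) and the ratio of summed CPM of small-subunit to large-subunit members (right) in each of the 15 libraries. Circles and the diamond are single libraries, bars are group means without control SNI replicate 23 (the diamond), and whiskers are SDs of groups with at least 3 libraries left; the diamond lies at 0.883% and at a ratio of 1.03, above every other library.

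These shares depend on how reads from the copies of each gene were assigned. The table also holds 235 rows of pseudogenes named Rpl or Rps followed by a digit, 169 of them with a count. These rows took between 61.4% and 74.4% as many counts as the members did. Pseudogenes named after Rpsa or the Rplp genes, such as Rpsa-ps10 (mean 131.9 CPM), and copies under other names were not among them. The counts on all copies are thus higher. For some genes the copies hold nearly all of the signal. Rpl3, which sits near the peptidyl transferase centre, had 5130 counts on its own row and 48245 on 2 pseudogene rows. Rps6, the protein phosphorylated by the S6 kinases, had 919 counts against 25809 on 4 pseudogene rows, and Rps16 had 322 against 23123 on 2 pseudogene rows. A median of 43.9% of the 50-base words of a member transcript also occur in transcripts of other genes. Of the members 3 shared none, Rpl3l and Rps19bp1 among them. Levels of single members are therefore uncertain wherever a near-identical copy exists, and they understate the genes whose reads were counted on a copy.

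On the scale of CPM per kilobase of transcript, averaged over the 14 libraries without replicate 23, the members spanned a 492-fold range. The highest were Rpl41 at 314, Rps21 at 305, Rplp1 at 285 and Rpl4 at 266. Rpl41 encodes the smallest protein of the large subunit, and Rplp1 encodes an acidic protein of the stalk that brings elongation factors to the ribosome. The lowest were Rpl3l at 0.639, Rpl17 at 1.39, Rps16 at 1.96, Rps13 at 2.02 and Rps29 at 2.33. Rpl3l is known as the paralogue of Rpl3 in striated muscle. The other low members encode ordinary ribosomal proteins, and Rps13 shares 83% of its 50-base words with other genes. The paralogues lay in between on the same scale, with Rps27l at 51.3, Rpl36al at 26.9, Rpl7l1 at 16.6 and Rpl22l1 at 16.1. Rplp0, the base of the stalk, was at 92.2, Rpsa at 27.5, the X-linked Rps4x at 62.7, Rpl13a at 182, Rpl3 at 26.6, Rpl10 at 9.68 and Rps6 at 7.12.

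In replicate 23, 77 of the 83 members had their highest level of all 15 libraries, as did 25% of all genes tested. The median member was 2.64-fold higher there than the mean of the other 2 control SNI libraries, 2.97-fold for small-subunit and 2.37-fold for large-subunit names, and 59 members were over 2-fold higher. Rps29 had 7.99 CPM in replicate 23, against 0.626 and 1.03 CPM in replicates 15 and 18. Rps27l, a p53-responsive paralogue of Rps27, had 140.5 CPM there, against 23.4 and 26.9 CPM. The 6 members that were not highest in replicate 23 were Rpl10a, Rpl17, Rpl3l, Rpl7a, Rps18 and Rps2.

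The excess in replicate 23 moved with transcript length. Among genes that averaged at least 1 CPM, log2(CPM + 0.5) in replicate 23 minus the mean of the other 2 control SNI libraries was taken in classes of transcript length. The members had medians of 1.82 up to 600 bases (20 members), 1.39 up to 1000 bases (32), 1.05 up to 2000 bases (24) and 0.63 up to 4000 bases (5), with 1 longer member at 1.67. Coding genes that are not members had medians of 1.49 in the same first class (124 genes), 1.01 (565 genes), 0.31 (2707 genes), -0.07 (5719 genes) and -0.29 among longer ones (4930 genes). The members lay above the other genes in each class. The longer member is Rps15a, with 4728 of the 5179 bases of its transcript in the 3′ UTR. The median member transcript has 886 bases, against 3130.5 bases over the coding genes tested. The part of transcript length and of RNA quality in the members' excess was not tested.

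**Figure D2:**
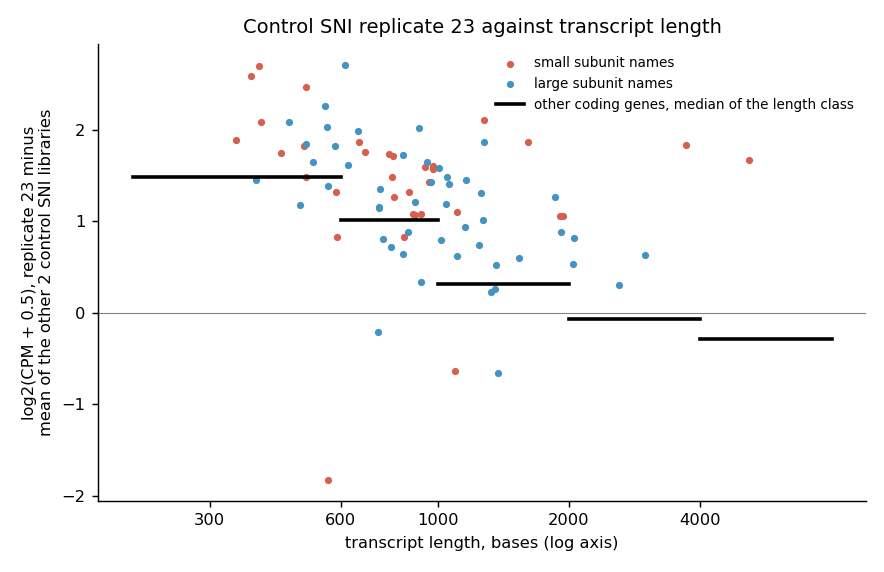
Difference in log2(CPM + 0.5) between control SNI replicate 23 and the mean of control SNI replicates 15 and 18 (y axis) against transcript length in bases (x axis, log scale). Points are ribosomal protein genes, and black bars are medians of other coding genes in each length class, which step down from 1.49 to -0.29; the outer ends of the first and last bars are for display only.

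In naive ganglia the question was what loss of the cluster does before injury. Nearly all members were slightly higher in knockout than in control ganglia: 78 of 83 had a positive log2 fold change, with a median of 0.20, against a median of 0.00 over all genes tested. None was called at an adjusted p under 0.05 with all 15 libraries (edgeR quasi-likelihood test with Benjamini-Hochberg adjustment, smallest adjusted p = 0.138), while 3 members had an unadjusted p under 0.05, and neither DESeq2 nor limma-voom called any. In that fit 0.889% of all genes were called higher and 1.00% lower. Without replicate 23, whose spread enters the same model, 5 members were called higher and 0 lower, which is 6.02% of the members against 2.16% of all genes called higher and 1.95% called lower. The median log2 fold change stayed at 0.20. The 5 were Rpl27a, Rps10, Rplp1, Rpl41 and Rps15a. With pseudogene rows named after a member with the ending -ps added to that member's row, also without replicate 23, Rps10 and Rps15a were no longer called. With the length trend removed, also without replicate 23, Rpl41 was not called.

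Rpl27a, a protein of the large subunit, had 44.0, 46.6, 40.01 and 48.9 CPM in knockout naive libraries, against 31.2, 34.1, 34.4, 29.2 and 36.0 CPM in control naive libraries. The groups did not overlap, and its log2 fold change was 0.44 (SE 0.154, adjusted p = 0.214 by edgeR) with all libraries and 0.44 (SE 0.0824, adjusted p = 0.00407) without replicate 23. Rps10, which lies at the mRNA entry side of the small subunit, had 6.51, 7.93, 7.03 and 7.44 CPM in knockout naive libraries, against 4.43, 4.71, 4.48, 5.10 and 4.43 CPM in control naive libraries. These groups did not overlap either, and the log2 difference was 0.64 without replicate 23 (SE 0.134, adjusted p = 0.00936 by edgeR). Rplp1 had 149.8, 174.8, 183.9 and 197.8 CPM in knockout naive libraries, against 124.1, 134.4, 145.6, 100.6 and 112.9 CPM in control naive libraries. Every knockout library was above every control library, a log2 difference of 0.51 without replicate 23 (SE 0.119, adjusted p = 0.0221 by edgeR).

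Rpl41 averaged 213.0 ± 13.7 CPM in knockout naive ganglia and 172.3 ± 16.3 CPM in control naive ganglia (SD, n = 4 and 5), with a log2 fold change of 0.30 and an adjusted p of 0.0491 (SE 0.0845, edgeR, without replicate 23). Rps15a, of the small subunit, averaged 74.7 ± 2.27 CPM in knockout naive ganglia and 62.7 ± 4.30 CPM in control naive ganglia (SD, n = 4 and 5), with a log2 fold change of 0.25 and an adjusted p of 0.0365 (SE 0.0652, edgeR, without replicate 23). Both sets of libraries were again separate. In all, 19 members (22.9%) had every knockout naive library above every control naive library, as did 4.87% of all genes tested. Coding genes other than members with transcripts of at most 1202.5 bases, the upper quartile of member length, had a median log2 fold change of 0.08 without replicate 23, and 2.43% of these 1195 genes were called higher.

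**Figure D3:**
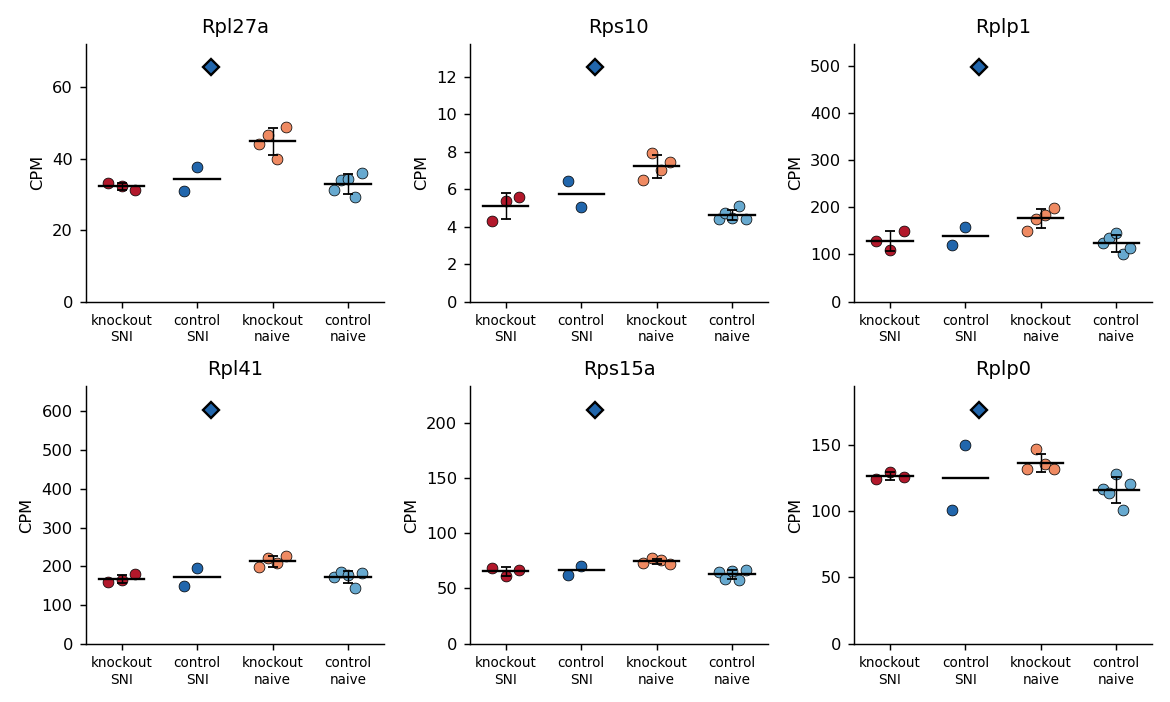
CPM of the 5 members called higher in naive knockout ganglia without control SNI replicate 23, and of Rplp0, in each library. Circles are single libraries, the diamond is control SNI replicate 23, bars are group means without it and whiskers are SDs of groups with at least 3 libraries left; in each panel the 4 knockout naive libraries lie above the 5 control naive libraries.

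Other members of known role showed smaller or more variable differences in naive ganglia, none called in either fit. Rplp0 had 131.2, 146.3, 135.2 and 131.5 CPM in knockout naive libraries, against 116.5, 113.5, 128.0, 100.5 and 120.0 CPM in control naive libraries, which did not overlap (log2 fold change 0.23, adjusted p = 0.188 by edgeR without replicate 23). Rpsa, the small-subunit protein also known as a laminin receptor, differed by 0.34 on the log2 scale (adjusted p = 0.0567 by edgeR without replicate 23). Rpl11, which with the 5S rRNA can bind the p53 regulator Mdm2, differed by 0.37 (adjusted p = 0.184), Rpl3 by 0.20, Rps6 by 0.29, Rpl13a by 0.21, Rps4x by 0.13 and Rpl10 by 0.08, all without replicate 23. The lowest log2 fold changes were those of Rps13 at -0.31, Rpl36 at -0.15 and Rps23 at -0.14. The highest were those of Rpl3l at 1.54 and Rps2 at 1.40, with SEs of 0.988 and 0.89. Markers of skeletal muscle, the tissue for which Rpl3l is known, were higher too, with positive values for 9 of 9 and a median log2 fold change of 1.59, although 0 were called. They summed to between 21.02 and 246.6 CPM in knockout naive libraries and between 5.1 and 111.8 CPM in control naive libraries, and their part in the value of Rpl3l was not tested.

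The promoters of 4 of the 5 members called higher in naive knockout ganglia are shown from 120 bases before the start of transcription up to it, 5′ to 3′ on the strand of the gene, from RefSeq on GRCm38.p6. Capitals mark CCGGAAG, a core bound by ETS factors, in the 2 promoters that hold it here. Rpl27a is at chr7:109519075-109519194 on the plus strand, Rpl41 at chr10:128549169-128549288, Rps10 at chr17:27635245-27635364 and Rps15a at chr7:118116148-118116267, the last 3 on the minus strand. The starts are those of RefSeq. In GENCODE M21 Rpl41 and Rps10 begin further upstream, at bases 128549305 and 27636669, so these stretches lie inside the genes. Those of Rpl27a and Rps15a lie partly inside.
Rpl27a: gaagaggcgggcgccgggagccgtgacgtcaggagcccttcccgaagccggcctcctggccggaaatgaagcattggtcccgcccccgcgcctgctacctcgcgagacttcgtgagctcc
Rpl41: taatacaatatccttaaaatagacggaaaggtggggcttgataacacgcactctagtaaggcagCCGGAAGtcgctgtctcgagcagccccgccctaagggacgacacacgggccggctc
Rps10: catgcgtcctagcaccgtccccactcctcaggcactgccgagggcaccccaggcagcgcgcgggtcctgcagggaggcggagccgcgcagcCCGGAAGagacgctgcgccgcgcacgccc
Rps15a: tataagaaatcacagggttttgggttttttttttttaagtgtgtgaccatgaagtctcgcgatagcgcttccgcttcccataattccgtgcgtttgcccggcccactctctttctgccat

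Of the 83 members, 63 have a promoter in that table, and a gene was counted if any of its listed promoters held the motif. On either strand between 250 bases before and 50 bases after the start, CCGGAAG occurred in 25 of them (39.7%), against 17.5% of 11910 other tested genes and 8.86% of all 32851 promoters listed. A run of at least 8 C or T on the strand of the gene between 20 bases before and 50 bases after the start, where the TOP motif lies, occurred in 49 members (77.8%), against 27.4% of the other tested genes and 25.4% of all promoters. A run of at least 10 occurred in 42 members (66.7%), against 13.4% and 11.95%. The YY1 core AAGATGG was in 15.9% of members and 7.77% of other tested genes, and TATAAA in 11.1% and 9.29%. CCAAT was less common in members, at 30.2% against 42.3%, while GGGCGG was in 63.5% of members against 65.4% and CACGTG in 9.52% against 11.2%. The motifs can share bases with each other, and a match is a description of the letters only.

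The microRNAs deleted in the knockout act mainly through 3′ UTR sites that pair with the seed, bases 2 to 8 of the mature strand. The members were searched for the 8-base form of such sites, the complement of these bases followed by an A. Sites without that A were not searched. The mature strands, from RefSeq on GRCm38.p6, are shown with these seed bases in capitals. All 3 lie on the minus strand of chromosome 6.
miR-183-5p: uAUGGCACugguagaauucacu
miR-96-5p: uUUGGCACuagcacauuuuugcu
miR-182-5p: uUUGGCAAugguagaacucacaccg

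Of the 83 members, 1 carried an 8-base site for any of the 3 in a 3′ UTR, which is 1.20%, against 9.38% of 14368 other tested genes with a 3′ UTR. The median longest 3′ UTR was 160 bases in members and 1201 bases in the other genes. The site is in Rplp0, on chromosome 5, where it begins at base 1300 of the 1358 bases of the main transcript and matches miR-183. It is shown in capitals within its surroundings.
Rplp0 site: ctcttgacttgGTGCCATAgctagtctggg
Rplp0 averaged 136.1 ± 7.07 CPM in knockout naive ganglia and 115.7 ± 10.1 CPM in control naive ganglia (SD, n = 4 and 5), the difference that was not called above. None of the 5 members called higher in naive knockout ganglia has such an 8-base site.

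Injury was associated with lower levels in knockout ganglia. Of the 83 members, 79 had a negative log2 fold change between knockout SNI and knockout naive libraries, with a median of -0.31, against -0.02 over all genes tested. With all 15 libraries edgeR called 0 members (smallest adjusted p = 0.0588, 5 members at an unadjusted p under 0.05). DESeq2 called 1 member lower, against 617 of all 16976 genes, and limma-voom called 0 members. By edgeR 7.17% of all genes were called higher and 2.94% lower. Without replicate 23, 32 members were called lower and 0 higher, which is 38.6% of the members against 11.3% of all genes called lower and 14.3% called higher. They were 16 small-subunit and 16 large-subunit names, with log2 fold changes between -0.72 and -0.22. Every knockout SNI library lay below every knockout naive library in 44 members (53.0%), as in 17.6% of all genes tested.

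The member with the smallest p was Rpl36al, the autosomal paralogue of the X-linked Rpl36a. It had 27.7, 25.3 and 27.2 CPM in knockout SNI libraries, against 41.98, 43.1, 33.7 and 44.8 CPM in knockout naive libraries. The groups did not overlap, at a log2 difference of -0.60 (SE 0.11, adjusted p = 0.000889 by edgeR, without replicate 23). Rpl27a had 33.2, 32.4 and 31.3 CPM in knockout SNI libraries, against 44.0, 46.6, 40.01 and 48.9 CPM in knockout naive libraries (log2 fold change -0.46, SE 0.0955, adjusted p = 0.00233). Its injured knockout libraries lay within the range of the naive controls, 29.2 to 36.0 CPM.

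Rps21, of the small subunit, had 107.0, 95.4 and 105.9 CPM in knockout SNI libraries, against 143.0, 144.1, 129.2 and 154.4 CPM in knockout naive libraries (log2 fold change -0.46, adjusted p = 0.00235 by edgeR, without replicate 23). Rpl11 had 5.81, 5.11 and 4.80 CPM in knockout SNI libraries, against 7.73, 8.82, 8.55 and 6.92 CPM in knockout naive libraries. The largest fall among called members was that of Rpl9, a protein near the base of the stalk, with 5.81, 7.01 and 5.70 CPM in knockout SNI libraries, against 10.1, 12.2, 6.65 and 12.5 CPM in knockout naive libraries. Rpl9 overlapped between the groups, while Rps21 and Rpl11 did not. Of the others, Rpl14 fell by 0.44, Rps14 by 0.43, Rps27l by 0.46, Rps7 by 0.58, Rpl30 by 0.55 and Rpsa by 0.36 on the log2 scale, all at an adjusted p under 0.05 by edgeR without replicate 23.

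Of the 5 members called higher in naive knockout ganglia, 4 were also called lower after injury in knockout, namely Rpl27a, Rps10, Rplp1 and Rpl41, and Rps15a was not (adjusted p = 0.0972). Both comparisons use the same 4 knockout naive libraries. Members not called in this comparison without replicate 23 included Rplp0 at -0.09, Rpl3 at -0.18 and Rpl7l1 at -0.20, and the highest values were those of Rps13 at 0.35, Rps2 at 0.89 and Rpl3l at 1.34, with SEs of 0.352, 0.845 and 0.811.

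Short genes in general were also lower in this comparison. The 1195 coding genes other than members with transcripts of at most 1202.5 bases had a median log2 fold change of -0.30 without replicate 23, and 35.6% of them were called lower. When each library's trend with transcript length was removed, and replicate 23 was left out, 5 members instead of 32 were called lower. The median of the members was then -0.15, and 1611 of all 17199 genes tested were called lower. The 4 members called both with and without the trend removed were Rpl27a, Rpl36al, Rps20 and Rps21. The counts of pseudogene rows named after a member with the ending -ps were then added to that member's row. With them, 46 members were called lower without replicate 23, and they included all 32. Copies under other names, such as Rpl37rt with 16227 counts against 855 for Rpl37, were not added. Over all genes 1914 of 17145 were called lower in that setting.

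In control ganglia the injury effect on the members turned on replicate 23. With all 15 libraries 81 of 83 members had a positive log2 fold change between control SNI and control naive libraries, with a median of 0.54 against 0.02 over all genes tested. None was called by edgeR (smallest adjusted p = 0.111, 41 members at an unadjusted p under 0.05). DESeq2 called 4 members higher, against 547 of all 16976 genes, and limma-voom called 0 members. By edgeR 2.12% of all genes were called higher and 0.359% lower. Without replicate 23 the median was 0.00, with 42 positive and 41 negative values. Then 0 members were called higher and 1 lower, where 3.37% of all genes were called higher and 1.26% lower.

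The members described next were among the 10 with the smallest p for injury in control with all 15 libraries, and none of them was called with or without replicate 23. Rps10 was at 0.72 with all libraries and 0.32 without replicate 23, Rplp2 at 0.85 and 0.25, and Rplp1 at 1.05 and 0.18 on the log2 scale. Rpl26, which binds p53 mRNA, was at 1.08 and 0.14, and Rps29 at 1.88 and 0.20. Rpl10a differed from these in that it was no lower without replicate 23, at 0.41 with all libraries and 0.47 without it (adjusted p = 0.0803 by edgeR). It had 12.1, 14.1 and 11.2 CPM in control SNI replicates 15, 18 and 23, against 10.1, 8.50, 10.4, 8.11 and 10.2 CPM in control naive libraries, so that all 3 injured libraries lay above all naive ones. The row of Rpl10a held 1474 counts in all, against 24465 on 2 pseudogene rows. With pseudogene rows added, its log2 fold change without replicate 23 changed sign, as given below.

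Between injured knockout and injured control ganglia the same library set the outcome. With all 15 libraries 80 of 83 members were lower in knockout, with a median log2 fold change of -0.67 against -0.01 over all genes tested. No member was called by edgeR (smallest adjusted p = 0.0867, 47 members at an unadjusted p under 0.05). DESeq2 called 14 members lower, against 489 of all 16976 genes, and limma-voom called 0 members. By edgeR 0.666% of all genes were called higher and 0.377% lower. Without replicate 23 the median was -0.08, 58 members were negative, 0 were called by edgeR or DESeq2, 5 had an unadjusted p under 0.05, and 0.488% of all genes were called higher and 0.250% lower. Rpl11 had the smallest p of the members in both fits, with 5.81, 5.11 and 4.80 CPM in knockout SNI libraries, against 6.78, 8.67 and 12.3 CPM in control SNI replicates 15, 18 and 23. Its groups did not overlap, also without replicate 23, and its log2 fold change was -0.79 with it (adjusted p = 0.0867 by edgeR) and -0.56 without it (adjusted p = 0.248).

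Single libraries decided these counts in more than 1 way. Leaving out control SNI replicate 15, so that replicates 18 and 23 remained, gave 58 members called lower in injured knockout against injured control ganglia and 50 called higher after injury in control. Calls over all genes rose too, to 2033 of 17235 called lower and 1095 called higher in these comparisons, in that order. Leaving out replicate 18 gave 2 and 2, and fewer of all genes were called there than without replicate 15. In either direction 435 and 283 of all 17201 genes were called, against 177 and 421 of 16976 with all libraries. Rps27l had the third-lowest log2 fold change of the members between injured groups with all libraries, -1.56, and was at -0.27 without replicate 23. Rps29 was the lowest at -1.70 and was at -0.01 without it.

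**Figure D4:**
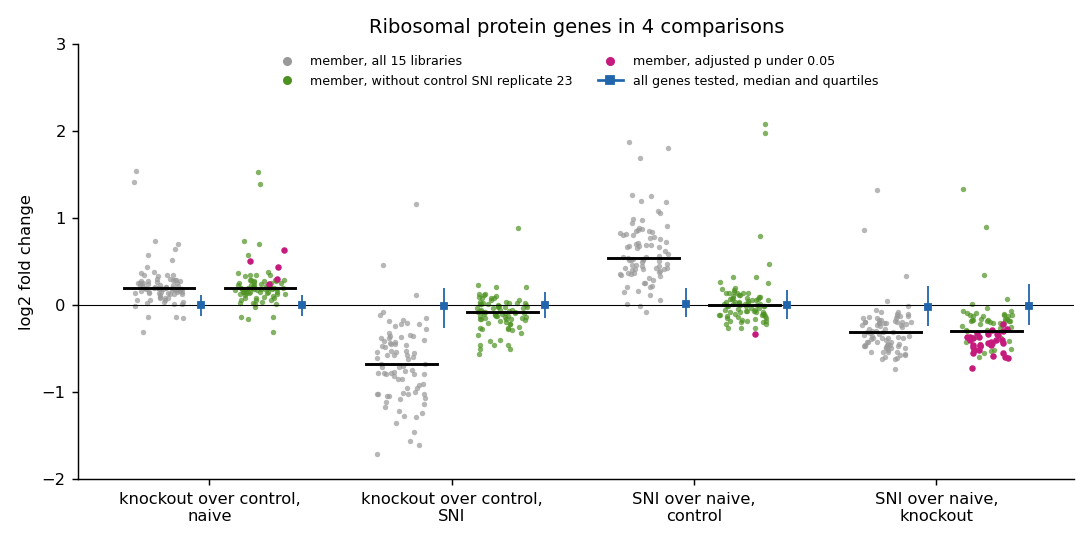
Log2 fold change of each of the 83 members in 4 comparisons (x axis) with all 15 libraries (grey) and without control SNI replicate 23 (green), with members at an adjusted p under 0.05 in magenta, black bars at the members' medians, and the median and quartiles of all genes tested in blue. The medians of the comparisons that use the control SNI libraries move from -0.67 to -0.08 and from 0.54 to 0.00 when the library is left out, while the others stay at 0.20 and near -0.3.

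The difference between the 2 injury effects, knockout minus control, had a median of -0.93 over the members with all libraries and -0.28 without replicate 23, against 0.00 and 0.01 over all genes tested. No member was called by edgeR in either fit (smallest adjusted p = 0.365 and 0.549), with 52 and 25 members at an unadjusted p under 0.05, and DESeq2 called 0 in both. Over all genes 0% were called in either direction with all libraries, and 0.00581% were called higher and 0% lower without replicate 23. For Rpl11 the difference was -1.15 with all libraries and -0.92 without replicate 23, and for Rpl27a it was -0.89 and -0.52. For Rps10 it was -1.22 and -0.80, for Rpsa -0.93 and -0.50, and for Rpl26 -1.62 and -0.66. The fall of the 32 members in knockout is thus not shown to differ from their change in control, where their median log2 fold change was -0.02 without replicate 23.

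Other genes of the translation machinery, in lists chosen by function, are given here for injury in knockout without replicate 23, where 14.3% of all genes were called higher and 11.3% lower. A list of 3 ribosomal proteins without an Rp name, with Fau and Rack1 among them, was at a median of -0.46 with 0 of 3 called. Of 23 elongation factors and other TOP mRNAs, 5 were called higher and 4 lower. Pabpc1, the poly(A)-binding protein, rose by 0.62 (adjusted p = 0.000543 by edgeR), and Eef2, which moves the ribosome along the mRNA, by 0.31, while Eif4a2, a helicase of initiation, fell by 0.36. Of 33 initiation factors 5 were called higher and 3 lower, and of 41 ribosome assembly factors 2 higher and 5 lower. Of 12 genes of RNA polymerase I transcription 2 were higher and 5 lower, with Polr1a, the largest subunit, at 0.36 and Polr1d at -0.44.

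Of 29 genes of mTOR signalling and TOP mRNA control, 12 were called higher and 2 lower after injury in knockout. After injury in control 1 was called higher and 0 lower, a difference that was not called for any of them. Over all genes 14.3% were called higher and 11.3% lower in knockout, and 3.37% higher and 1.26% lower in control. Mtor rose by 0.48 and Larp1, which binds the TOP motif, by 0.43 in knockout, and Ddit4, an inhibitor of mTOR, fell by 0.60. Of 19 genes of the integrated stress response 7 were called higher and 0 lower, with Chac1 at 1.15 and Trib3 at 1.03. Of 76 mitochondrial ribosomal proteins 47 were called lower (median -0.35), as were 61 of 85 nuclear genes of oxidative phosphorylation (median -0.43) and 1 of 13 mitochondrially encoded genes (median -0.34). In naive knockout against control, 0 of the 76 and 2 of the 85 were called higher, with medians of 0.09 and 0.10.

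Markers of some other cells moved with injury. Of 10 macrophage markers 6 were called higher after injury both in knockout and in control ganglia without replicate 23. Over all genes 14.3% were called higher there in knockout and 3.37% in control. The macrophage markers summed to 259.0 to 323.1 CPM in knockout SNI libraries and 148.4 to 230.4 CPM in knockout naive libraries. Of 9 skeletal muscle markers 1 was called higher in knockout after injury, with 8 of 9 positive and a median log2 fold change of 2.21. They summed to between 168.2 and 1297 CPM in knockout SNI libraries and between 21.02 and 246.6 CPM in knockout naive libraries, which overlapped. Sums also overlapped for Schwann cells (5871 to 10738 against 9305 to 10592 CPM), satellite glia (2056 to 2551 against 2263 to 2666) and fibroblasts (1188 to 1589 against 1187 to 1288). Endothelial sums did not (69.3 to 87.1 against 49.4 to 66.3). Of 12 sensory neuron markers 1 was higher and 2 were lower in knockout after injury. They summed to between 16774 and 17778 CPM in knockout SNI libraries and between 15996 and 17125 CPM in knockout naive libraries, which overlapped. In bulk tissue, fewer cells of a type and less RNA per cell cannot be told apart, and the part of the cell mixture in the members' change was not tested.

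Across the libraries the members mostly varied together, as a description of libraries that share groups and depth. Pearson's r between the log2 CPM of a member and the median of the members had a median of 0.91 over all 15 libraries. Over the 14 without replicate 23 it was 0.68, with 16 members above 0.8. It was highest for Rpsa, at 0.92, and lowest for Rps13, at -0.31. Among genes that are not members, those whose log2 CPM was most like the members' median over the 14 libraries were the pseudogene Rpsa-ps10 (0.92), Tmem256 (0.90), Gm10320 (0.89), the pseudogenes Rpl10a-ps1 (0.88), Rpl37rt (0.88), Gm11942 (0.88) and Gm15427 (0.87), Fmc1 (0.87) and Rom1 (0.86). The median of all other genes was 0.01.

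Rps18 and Rps2, small-subunit genes that both lie on chromosome 17, took 1 of 2 separate levels in each library. Both levels of Rps18 occurred in each of the 4 groups, while the high level of Rps2 occurred in 3 groups and in 0 of the 5 control naive libraries. Rps18 had 3.79, 13.6 and 14.1 CPM in knockout SNI replicates 13, 19 and 21, 13.98, 14.6 and 3.67 CPM in control SNI replicates 15, 18 and 23, 18.9, 3.97, 14.2 and 17.0 CPM in knockout naive replicates 4, 5, 8 and 9, and 3.74, 4.36, 14.4, 4.19 and 14.2 CPM in control naive replicates 1, 2, 3, 6 and 7. No library lay between 4.36 and 13.6 CPM. Rps2, which lines the mRNA entry channel, had 1.01, 10.2 and 10.4 CPM in knockout SNI libraries, 1.15, 11.7 and 2.37 CPM in control SNI libraries, 3.25, 1.59, 1.71 and 10.3 CPM in knockout naive libraries and 1.18, 1.38, 1.96, 1.46 and 1.57 CPM in control naive libraries.

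Rps2 was above 10 CPM in knockout SNI replicates 19 and 21, control SNI replicate 18 and knockout naive replicate 9, and at most 3.25 CPM in the other libraries. The pseudogene row Rps2-ps13 had 32.3, 37.8, 33.7 and 31.6 CPM in those 4 libraries, in the same order, and between 58.9 and 106.4 CPM in the other 11. When pseudogene rows were added to the member rows, the log2 fold change of Rps2 in naive knockout against control ganglia was -0.07 instead of 1.41, and for injury in knockout it was -0.25 instead of 0.86. Neither Rps2 nor Rps18 was called in any comparison with or without replicate 23.

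**Figure D5:**
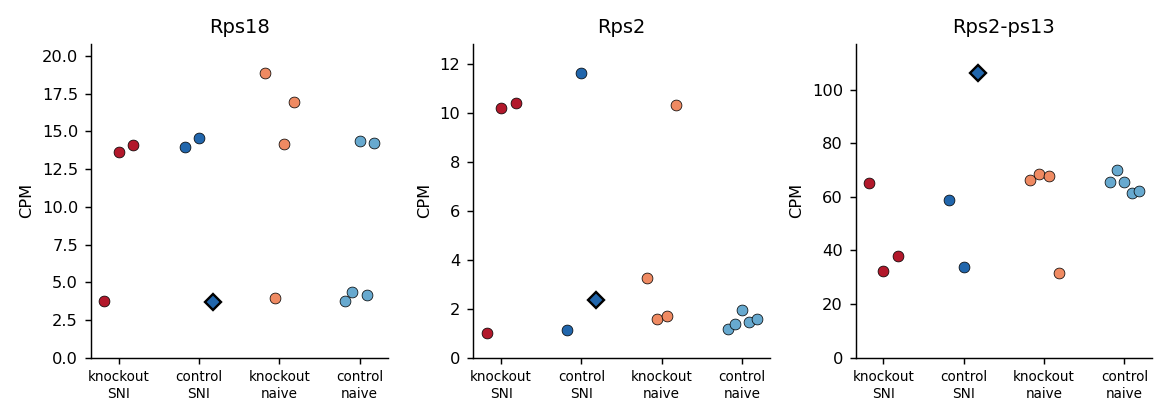
CPM of Rps18, Rps2 and the pseudogene row Rps2-ps13 in each library, by group. Circles are single libraries and the diamond is control SNI replicate 23; Rps18 lies either at 4.36 CPM and below or at 13.6 CPM and above, and the 4 libraries with Rps2 above 10 CPM are the 4 lowest for Rps2-ps13.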

How the data were processed

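The deposited table holds raw read counts per Ensembl gene, 1 column per mouse, and the values are whole numbers. RNA was extracted with Trizol and libraries were made with a stranded mRNA kit, per the labels' protocols. HTSeq 0.6.1, TopHat2 2.0.4, DESeq2, Cufflinks and SAMtools are the tools, and GRCm38 the build, in the submitters' processing notes. The strand setting, read length and treatment of reads that match several places are not given in these sources, and the last of these bears on every gene with near-identical copies. Symbols, transcripts and 3′ UTRs came from GENCODE M21. The length of a coding gene was that of its longest basic transcript tagged as APPRIS principal, or of its longest basic transcript where none was. Some of these have long UTRs, so lengths of single members are approximate.

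Genes passing filterByExpr of edgeR (minimum count 10) were tested, 16976 with all libraries and 17199 without control SNI replicate 23. One model with 4 group means was fitted with edgeR 4.0.16 in R 4.3.3 (TMM, robust quasi-likelihood F test, two-sided, 11 residual degrees of freedom with all libraries). Calls used a Benjamini-Hochberg adjusted p under 0.05 over all genes tested. The fit was tested on simulated data. CPM use TMM factors, log2 CPM a prior count of 2, and transcripts were compared by 50-base words. DESeq2 1.42.0, limma-voom (limma 3.58.1), other scalings, no filter, a length correction (lowess span 0.3), added pseudogene rows and left-out libraries were alternatives. Pseudogene rows were added only where their name was that of a member followed by -ps. Each library is 1 mouse.

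The members, lists and alternatives were chosen with earlier results of these data known. Members named in the text are, for each comparison, drawn from those with the 10 smallest p and the 3 highest and 3 lowest fold changes, the 5 highest and 5 lowest levels per kilobase, 15 names fixed by role, and members called without replicate 23. Rps18 and Rps2 are described across libraries because of their values. Some members and other genes that these rules name are not reported here.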

Additional observations from a re-analysis of the deposited data

Results flagged for a closer look

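Among 72 sets of 4 or 5 naive libraries, covering 35 named members and the members' share of counts, 3 held a library far from the others, where chance alone marks about 5% of sets. Rpl13a, whose protein also takes part in translational silencing of inflammatory mRNAs, had 155.4 CPM in control naive replicate 6, with the next lowest control at 191.3 CPM. Rps21 had 95.9 CPM in the same library, with the next lowest control at 116.9 CPM. Control naive replicate 6 also had the lowest share of counts on the members among naive libraries, 0.351%. Rpl7l1, a paralogue of Rpl7, had 49.5 CPM in knockout naive replicate 5, with the next highest knockout at 44.9 CPM.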

How the results depend on the processing

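No paired analysis was possible because the groups share no replicate numbers. With all 15 libraries edgeR called 0 members in every comparison. Naive knockout against control gave 1 member called higher with the length trend removed (196 of 16976 genes). It gave 13 with only the groups compared and 8 with Wnt1-Cre controls only, settings that also leave out replicate 23 here. With only the groups compared, 504 of all 16457 genes tested were called higher. Without control SNI replicate 23, naive knockout against control gave 11 with DESeq2 (448 of 17199 genes). There it gave 4 with the length trend removed (371 of 17199). It gave 5 with pseudogene rows added (373 of 17145), of which 3 are among the 5 called without these changes. Injured knockout against control gave 14 lower with DESeq2 (489 of 16976 genes). Injury in control gave 4 higher with DESeq2 (547 of 16976 genes) and 1 with the length trend removed (435 of 16976). Without replicate 23 it also gave 1 higher with the length trend removed (513 of 17199). There 1 was lower with DESeq2 (311 of 17199) and 3 with pseudogene rows added (209 of 17145). Injury in knockout gave 1 lower with DESeq2 (617 of 16976 genes). It gave 36 with only the groups compared, which again leaves out replicate 23 (1971 of 16458). With Wnt1-Cre controls only, its median was -0.30. Without replicate 23, injury in knockout gave 31 lower with DESeq2 (1867 of 17199) and 5 with the length trend removed (1611 of 17199). It gave 46 with pseudogene rows added (1914 of 17145). With the length trend removed the median for injury in knockout was -0.16 (-0.15 without replicate 23), and with Wnt1-Cre controls only the median difference between injury effects was -0.11, from 1 control SNI library, whose spread is taken from the other groups. Leaving out 1 library at a time gave 0 to 5 members higher in naive knockout, 0 to 58 lower in injured knockout, 0 to 50 higher and 0 to 1 lower for injury in control, 0 to 32 lower for injury in knockout and 0 to 42 lower for the difference. The medians then ran from 0.15 to 0.23, -0.92 to -0.08, 0.00 to 0.84, -0.34 to -0.26 and -1.19 to -0.28. The 58 and 50 came without control SNI replicate 15, where 2033 and 1095 of all 17235 genes were called in the same directions. The 42 came from the same fit. Members without paralogues and other names took 0.439% of counts in naive knockouts, against 0.461% for all members. The cause of these shifts was not tested.

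Single members changed sign as follows on the log2 scale. With pseudogene rows added, in naive knockout, Rps2 was at -0.068 (-0.069 without replicate 23), Rps13 at 0.26 and Rpl36 at 0.26 (0.25 without replicate 23), and for injury in knockout Rps13 was at -0.29 (-0.27 without replicate 23) and Rps2 at -0.25 (-0.23). Without replicate 23 and with pseudogene rows added, Rps10 was at -0.10 and Rpl10a at -0.0079 for injury in control. With Wnt1-Cre controls only, where the control SNI group is 1 library, Rplp1 was at -0.050, Rps29 at -0.13 and Rpsa at -0.025 for injury in control, and Rps29 at 0.37 in injured knockout (0.048 with the length trend removed without replicate 23). Rplp0 was at 0.050 for injury in knockout with the length trend removed, and at 0.052 there without replicate 23. Over the left-out libraries Rps23 ran from -0.31 to 0.0030 and Rpl10 from -0.0067 to 0.14 in naive knockout. The low counts of many members, whose reads may lie on copies, limit the precision of their fold changes.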

Other observations

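Across the 83 members, which share libraries and differ in base composition, Spearman's rho between transcript length and the excess in control SNI replicate 23 was -0.50. It was 0.29 between length and the log2 fold change for injury in knockout without replicate 23, and -0.10 for naive knockout against control. The share of 50-base words found in other genes had a rho of -0.39 with the mean CPM of the member over the 14 other libraries, and of 0.06 with the fold change in naive knockout.

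Outside the ribosome, the genes whose log2 CPM followed the members' median most closely over all 15 libraries were again mostly copies and short mRNAs. They included the ribosomal pseudogenes Rps24-ps3 (Pearson's r 0.97) and Rps26-ps1 (0.97), and Tmem256 (0.98) and Uqcr10 (0.98); Uqcr10 is a small subunit of respiratory complex III. The median of all other genes was -0.06.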
